A study of Mus musculus with 4 samples.

Results

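The genes Pik3r1, Pik3ca and Ptpn1 were examined for methylated DNA in offspring islets and in the sperm of their fathers' generation. The members were all peaks of the 4 deposited lists that overlapped a window of each gene with 10 kb of flank on either side. They numbered 106 of 690963 peaks, with 46 at Pik3r1, 32 at Pik3ca and 28 at Ptpn1. Merged where they overlapped, they formed 49 regions of 307174 in the whole series. A peak is an interval in which sequenced reads, called tags, were denser than the caller's background. The study followed methylation at these insulin-signalling genes further, and those later measurements are not analysed here.

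Methylated DNA was enriched with an antibody against 5-methylcytosine and sequenced (MeDIP-seq). ICR mice, an outbred strain, were used throughout. Male founders of the T2D group (a model of type 2 diabetes) were fed from weaning at 3 weeks on a fat-rich chow that supplied 33% of energy as fat. At 12 weeks they received a low dose of streptozotocin (STZ), which damages insulin-producing beta cells, and they stayed on that diet for 4 weeks. Only males with fasting glucose of 7 to 11 mM in that time were counted as T2D. Control founders ate a control diet, and no STZ injection is given for them, so diet and STZ cannot be told apart. All founders were mated at 16 weeks with females on standard diet. Offspring were 3 weeks old at islet isolation (6 with a control and 6 with a T2D father), and founders were 16 weeks old at sperm collection (6 per condition). Each of these 4 groups had 1 library, the labels do not say how animals were combined, and every difference between conditions is therefore described without a test. Islets hold several cell types, so a change in methylation per cell and a change in the mix of cells cannot be told apart. The peak lists hold no expression values by which the labelled tissues could be checked.

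Insulin binding to its receptor leads to tyrosine phosphorylation of receptor substrates, which recruit phosphoinositide 3-kinase and so activate Akt. Pik3ca encodes the catalytic alpha subunit of this kinase and Pik3r1 its main regulatory subunit, which binds the phosphorylated substrates and stabilises the catalytic subunit. Ptpn1 encodes protein tyrosine phosphatase 1B, which removes phosphate from the insulin receptor and so dampens the signal. Methylated CpG dinucleotides inside genes are common, whereas CpG-rich promoters of active genes are usually unmethylated.

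The lists use the mouse build mm9. Without flanks the windows ran on chromosome 13 from 102450000 to 102539000 for Pik3r1, on chromosome 3 from 32296000 to 32368000 for Pik3ca and on chromosome 2 from 167757000 to 167805000 for Ptpn1. RefSeq gene lengths on another build, GRCm38.p6, were 1544 bp shorter than this span for Pik3r1 (gene ID 18708), 2953 bp shorter for Pik3ca (18706) and longer for Ptpn1 (19246; 48636 against 48001 bp). These differences compare lengths only and do not fix where either end lies. The error of the gene ends is therefore not known here, and exons and introns were not assigned. Pik3r1 is read on the minus strand and both other genes on the plus strand, per RefSeq.

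The DNA before the annotated starts is shown because MeDIP recovers fragments by their methylated CpGs, and it shows how many CpGs these genes offer there. Each line holds the 250 bases before a start, 5′ to 3′ on the gene's strand, from RefSeq on GRCm38.p6, with CpG dinucleotides in capitals. These coordinates are of GRCm38.p6 and must not be set against the mm9 peaks.
Pik3r1, outer start, chr13:101768218-101768467, minus strand: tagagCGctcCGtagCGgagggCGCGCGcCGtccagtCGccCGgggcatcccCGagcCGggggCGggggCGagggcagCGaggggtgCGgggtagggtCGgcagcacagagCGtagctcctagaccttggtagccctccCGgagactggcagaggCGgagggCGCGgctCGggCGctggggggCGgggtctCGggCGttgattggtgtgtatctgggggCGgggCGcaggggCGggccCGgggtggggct
Pik3r1, inner start, chr13:101692631-101692880, minus strand: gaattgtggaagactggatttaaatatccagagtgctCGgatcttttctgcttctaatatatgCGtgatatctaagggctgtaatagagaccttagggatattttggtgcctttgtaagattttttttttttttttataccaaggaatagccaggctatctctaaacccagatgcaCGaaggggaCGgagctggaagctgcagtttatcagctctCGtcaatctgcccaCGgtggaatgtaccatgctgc
Pik3ca, chr3:32396815-32397064, plus strand: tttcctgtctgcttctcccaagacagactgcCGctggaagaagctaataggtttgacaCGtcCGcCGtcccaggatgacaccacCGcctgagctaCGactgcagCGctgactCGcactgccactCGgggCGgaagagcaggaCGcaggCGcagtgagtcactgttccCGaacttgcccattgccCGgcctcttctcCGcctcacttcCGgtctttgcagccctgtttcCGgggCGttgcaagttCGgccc
Ptpn1, chr2:167932077-167932326, plus strand: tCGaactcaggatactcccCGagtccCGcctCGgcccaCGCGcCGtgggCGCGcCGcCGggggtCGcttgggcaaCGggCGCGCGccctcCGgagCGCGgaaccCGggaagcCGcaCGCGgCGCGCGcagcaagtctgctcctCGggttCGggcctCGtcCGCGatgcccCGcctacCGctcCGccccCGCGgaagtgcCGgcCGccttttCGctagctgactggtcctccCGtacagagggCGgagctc
With the next 50 bases added, Ptpn1 held 47 CpGs in 300 bases, a number reached by 1.44% of the 32851 promoters in the table. The outer Pik3r1 start held 34, reached by 7.73%, and the Pik3ca start 20, reached by 26.5%. The inner Pik3r1 start held 6, below the median of 7.00 over all promoters. Among 24 other insulin-pathway genes listed for this comparison, 20 had a promoter in the table, with a median of 27.0 CpGs at their richest start. Peaks at those genes were not analysed here, since no mm9 annotation was at hand.

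None of the 4 libraries had a peak across the gene-start edge of any of the 3 windows. The stretch around that edge without a call in any library was 12950 bp at Pik3ca, 4759 bp at Ptpn1 and 3840 bp at Pik3r1. Over the genome, neighbouring regions lay a median of 3964 bp apart, and the middle 50% of gaps ran from 2054 to 7818 bp. The Pik3ca stretch exceeded that range, and the other stretches did not. A stretch chosen because it holds a given point tends to be longer than a typical gap. The comparison therefore cannot tell whether the Pik3ca start is unusually free of calls. At Pik3r1 a T2D islet peak of 23 tags (from 102539286 to 102539971) began 286 bp from the edge. The distance of the edge from the true start is not known, so whether the peak touches the start cannot be settled.

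Of the 106 members, 84 (79.2%) lay inside the gene spans, which make up 77.7% of the windows. At Pik3r1, 8 of 9 control islet, 10 of 11 T2D islet, 11 of 14 control sperm and 9 of 12 T2D sperm peaks were in the gene span. At Pik3ca these numbers were 6 of 8, 7 of 7, 5 of 6 and 9 of 11, and at Ptpn1 4 of 6, 3 of 6, 5 of 8 and 7 of 8. Peaks covered 8.67% and 13.6% of the Pik3r1 window in control and T2D islets, and 14.0% and 14.4% in control and T2D sperm. The Pik3ca window was covered to 7.98%, 7.67%, 7.30% and 10.7%, and the Ptpn1 window to 9.30%, 11.5%, 14.0% and 16.2%, in the same order. When the genome was cut into windows of the same length, the median number of peaks was 7 for the length of Pik3r1 (8 in T2D sperm), 6 for Pik3ca, and 4 in islets and 5 in sperm for Ptpn1. None of the 12 counts was below this median, and 8 lay within the middle 50% of windows. The other 4, all in sperm, were above it: 14 peaks at Pik3r1 in control, 11 at Pik3ca in T2D, and 8 at Ptpn1 in either library. At least as many peaks were held by 14.0%, 20.9%, 23.8% (control) and 24.0% (T2D) of the genome windows. Those windows were not matched for gene content.

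**Figure D1:**
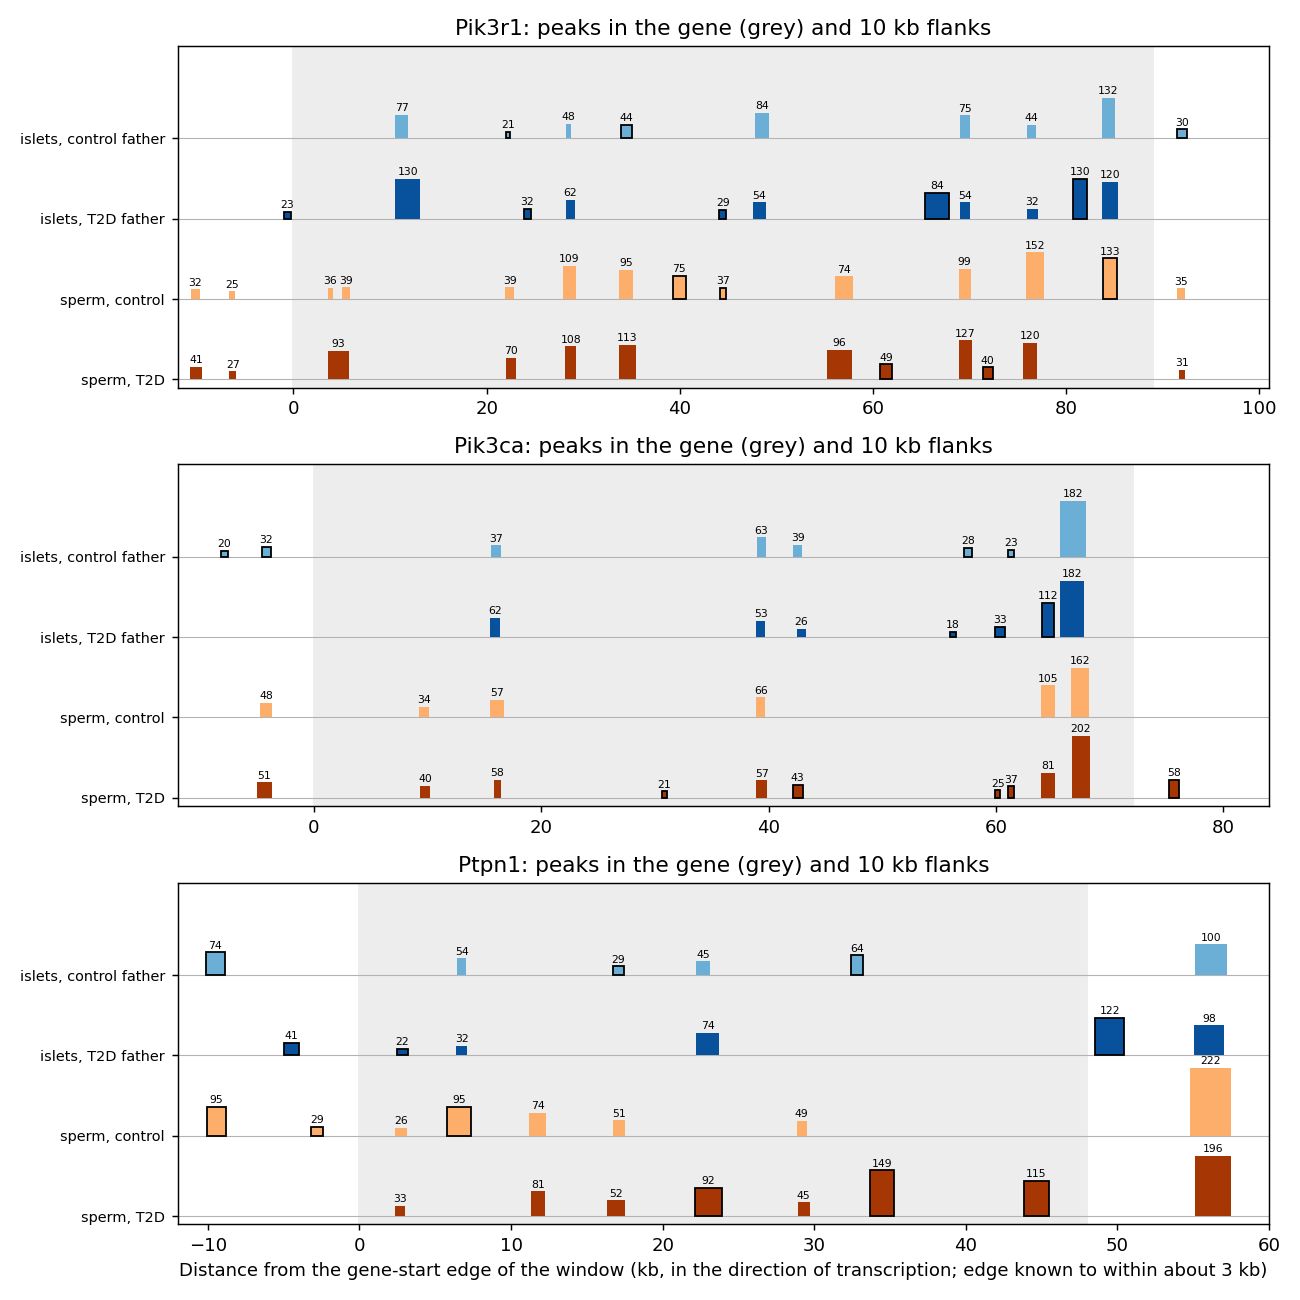
Peaks of the 4 libraries along each gene. The horizontal axis is the distance in kb from the gene-start edge, in the direction of transcription, grey marks the gene span, and bar width is peak width. The precision of the edge printed on the axis rests on gene lengths alone, which do not fix its position. Bar height and the number above give the tags, and a black outline marks a peak without a partner in the other condition of its tissue. The tallest bar is the 222-tag peak of control sperm downstream of Ptpn1, and the outlined bars are spread over all 3 windows.

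The first question of the design was which methylated regions of these genes were found for only 1 condition in a tissue. A peak counted as matched, or as having a partner, if any peak called for the other condition in that tissue shared at least 1 bp with it. In islets, 11 of 24 T2D peaks (45.8%, 95% exact interval 25.6% to 67.2%) had no control partner, against 32.7% of the whole T2D list. Of the control islet peaks 10 of 23 (43.5%, 23.2% to 65.5%) had no T2D partner, against 32.7% of that list. In sperm, 10 of 31 T2D peaks (32.3%, 16.7% to 51.4%) and 6 of 28 control peaks (21.4%, 8.30% to 41.0%) had no partner, against 30.6% and 30.1% of their lists. All 4 list shares lay within the intervals, which cover counting error only, so the windows did not differ detectably from the genome in this respect. When only peaks with a score of at least 100 were kept in both lists, 1 of 4 T2D islet members (exact interval 0.631% to 80.6%) and 5 of 8 control islet members (24.5% to 91.5%) had no partner, against 41.6% and 43.2% of the lists so reduced. In sperm 5 of 12 T2D and 5 of 12 control members (15.2% to 72.3% for either) had none, against 39.3% and 41.3%. These list shares too lay within the intervals. A member counts as unmatched here also where its partner was below that score. A score of 100 corresponds to a caller's p-value whose negative log10 is 10.

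By gene, islet peaks without a partner numbered 5 T2D and 3 control at Pik3r1, 3 and 4 at Pik3ca, and 3 and 3 at Ptpn1. In sperm they numbered 2 T2D and 3 control at Pik3r1, 5 and 0 at Pik3ca, and 3 and 3 at Ptpn1. At Pik3ca all 6 control sperm peaks were thus matched (exact interval for the unmatched share 0% to 45.9%), and 5 of 11 T2D sperm peaks (45.5%, 16.7% to 76.6%) were not. Both intervals include the shares of the whole lists, 30.1% in control and 30.6% in T2D sperm. These 5 peaks held 21, 43, 25, 37 and 58 tags, against a list median of 50, and 4 of them had fewer tags than that median.

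**Figure D2:**
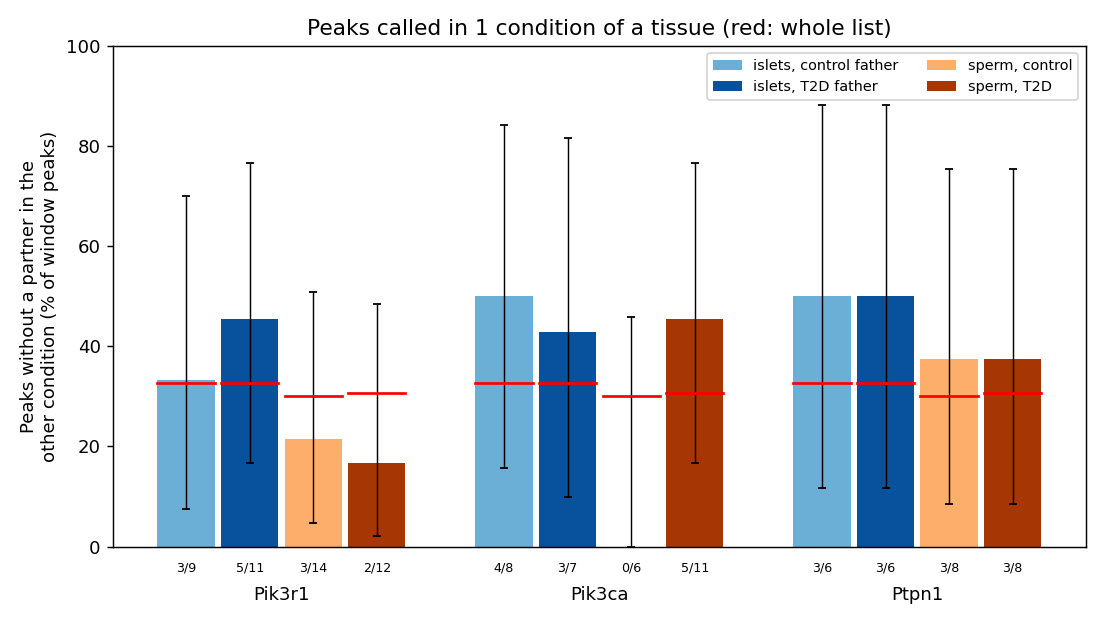
Share of window peaks without a partner in the other condition of the same tissue, in percent, for each gene and library. Bars carry 95% exact binomial intervals, the fractions below give the counts, and red lines mark the share in the whole list (30.1% to 32.7%). Each red line lies within the interval of its bar.

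Of the 37 members without a partner, 33 had a score below the median of their own list, as had 74.8% of the 217565 peaks without a partner in the 4 whole lists. Their median score percentile was 27.4 in control islets, 36.1 in T2D islets, 33.3 in control sperm and 27.4 in T2D sperm. Matched members had medians of 66.8, 40.3, 62.1 and 62.0 in that order.

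**Figure D3:**
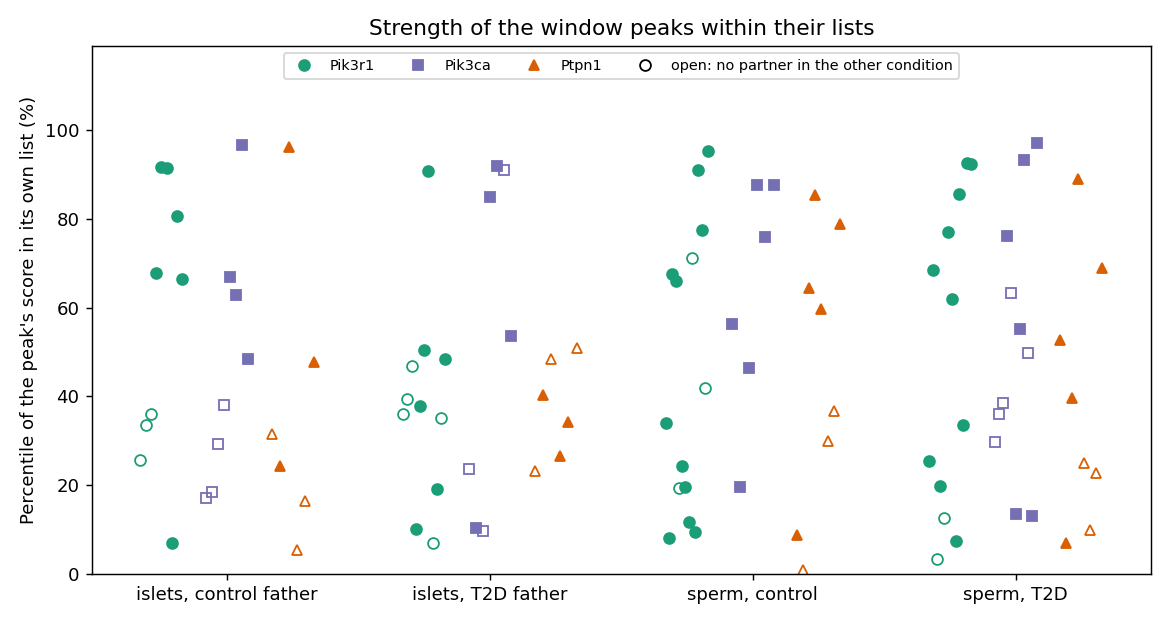
Percentile of each member's score within its own library's list, by library and gene. Filled symbols have a partner in the other condition and open symbols have none. The highest open symbol is the Pik3ca peak of T2D islets at percentile 91.0.

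At Pik3ca, the catalytic subunit gene, the unmatched peak ranking highest by score within its list, over all 3 windows, lay near the 3′ end. The region on chromosome 3 from 32359982 to 32361172 had 112 tags in T2D islets, 105 in control sperm and 81 in T2D sperm, and no peak in control islets. In T2D islets its score was 165.02 and its enrichment over background 5.67. It belonged to the strongest 10% of that list by score, of which 3.47% had no control partner. At percentile 91.0 it was near the lower end of that class. Among peaks of the list with at least 112 tags, 10.2% had no control partner. The peak was picked because it ranked highest by score among the unmatched peaks. The share by score therefore cannot tell how unusual its missing control call is. The nearest control islet peak began 575 bp away and formed the neighbouring region, from 32361627 to 32364245, which was called in all 4 libraries. That neighbour held 182 tags in control and 182 in T2D islets, and 162 in control and 202 in T2D sperm. Across the whole stretch, control islets therefore had a call on the 3′ part only, and all other libraries on both parts. A missing call gives no tag count, so a fold change cannot be stated for the 5′ part.

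Within Pik3ca, another region, from 32311472 to 32312732, held 37 tags in control and 62 in T2D islets, and 57 and 58 in control and T2D sperm. Tag ratios were scaled to the tags in all peaks with a partner in the 2 lists (T2D over control 1.01 in islets and 0.999 in sperm). On this scale the T2D islet tags were 1.66 times the control tags (95% exact interval 1.09 to 2.56), and per kb of peak width, scaled likewise, 1.65 times. In sperm the ratio was 1.02 (0.694 to 1.49), but per kb it was 2.03, because the T2D sperm peak was 615 bp wide against 1226 bp in control. Its summits lay within 45 bp of each other in the 4 libraries. The opposite direction was seen from 32338109 to 32339237, where control islets held 39 and T2D islets 26 tags (ratio 0.660, 0.386 to 1.11). Here T2D sperm had 43 tags and control sperm no peak. Single regions past 1.5-fold, here and below, were picked by that ratio. Their intervals therefore tend to exclude 1 and cannot tell how unusual the ratios are.

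A short stretch of Pik3ca held alternating calls. From 32355887 to 32356818, T2D islets had 33 tags and T2D sperm 25, with no call in either control library. The next region, from 32357012 to 32357615, had 23 tags in control islets and 37 in T2D sperm. The islet peaks of the 2 regions were only 194 bp apart, so with a partner allowed within 1 kb each would match the other. All 4 peaks were below the median score of their lists. Just before this stretch T2D islets had 18 tags from 32351932 to 32352428, and control islets 28 tags from 32353193 to 32353912, each in 1 library only. Upstream of the gene, from 32290970 to 32292321, control islets had 32 tags, control sperm 48 and T2D sperm 51, and T2D islets had no peak. Farther upstream, from 32287814 to 32288439, control islets alone had 20 tags.

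At Pik3r1, the regulatory subunit gene, 3 of 21 regions were called in all 4 libraries. The region from 102509713 to 102511126 held 48 tags in control and 62 in T2D islets, and 109 and 108 in control and T2D sperm. The region from 102468737 to 102470144 held 75 and 54 tags in islets and 99 and 127 in sperm. The third, from 102461246 to 102463448, held 44 and 32 tags in islets and 152 and 120 in sperm. None passed 1.5-fold between conditions in either tissue, and summits differed by 49 to 97 bp between libraries. Tags are not comparable between tissues, since islet depth is not given.

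The T2D-only call of Pik3r1 with the most tags lay at the 3′ side of the gene, from 102456822 to 102458324, with 130 tags in T2D islets and none of the other libraries calling a peak. Its enrichment was 3.30 and its score 71.04, below the median of the list, although its tags were at percentile 97.0. Among peaks of the list with at least 130 tags, 10.3% had no control partner, and among the 10% of the list that share its score class 42.3% had none. The nearest control islet peak lay 1546 bp away, in a region from 102453655 to 102455284 that had 132 tags in control and 120 in T2D islets and 133 in control sperm, with no peak in T2D sperm. A second T2D-only islet peak, from 102471167 to 102473609, was 2443 bp wide with 84 tags and a score of 53.48, among the weakest 10% of its list. The remaining T2D-only islet peaks held 29, 32 and 23 tags. The T2D-only peaks of sperm held 40 tags from 102466593 to 102467628 and 49 tags from 102477075 to 102478233, with score percentiles of 3.22 and 12.6, and neither region was called in islets.

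Of the 3 control-only sperm peaks of Pik3r1, 1 had a score above 100. This peak, from 102498409 to 102499720, held 75 tags with a score of 117.13 and was absent from the other 3 libraries. In its 10% class of the control sperm list by score, 14.1% of peaks had no partner. In islets the control-only peaks held 30, 44 and 21 tags, and each overlapped peaks of both sperm libraries. The region from 102515988 to 102517116 had 21 tags in control islets and no T2D islet peak, while sperm had 39 tags in control and 70 in T2D (ratio 1.80, 1.20 to 2.73; per kb 1.73). It was the only one of 21 shared sperm regions in the 3 windows past 1.5-fold in summed tags, against 8.38% of 123445 shared sperm regions past it in this direction in the genome.

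Of the Pik3r1 regions, 2 were called in both islet libraries and in neither sperm library. The first, from 102489761 to 102491442, had 84 tags for control and 54 for T2D fathers. The ratio was 0.636 (0.443 to 0.906), and per kb 0.721, short of 1.5-fold. The other, from 102525866 to 102528491, held 77 and 130 tags, a ratio of 1.67 (1.25 to 2.25). The T2D peak was however 2626 bp wide against 1296 bp in control, and per kb the ratio turned to 0.861. More DNA was called in T2D there, at a lower tag density. In sperm, 4 regions of Pik3r1 were called in both libraries and in neither islet library, at 74 and 96, 75 (in 2 peaks) and 93, 25 and 27, and 32 and 41 tags in control and T2D.

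At Ptpn1, the phosphatase gene, a region about 6.6 kb inside the gene-start edge had fewer calls or tags in T2D in both tissues. It ran on chromosome 2 from 167762797 to 167764390 and held 54 tags in islets from offspring of control fathers and 32 in those of T2D fathers, with 95 tags in control sperm and no peak in T2D sperm. The islet ratio was 0.587 (0.367 to 0.925), and per kb 0.530. The control islet peak had a score of 212.08 and an enrichment of 12.00, percentile 96.2 of its list by score, and the T2D islet peak a score of 74.95. The control sperm peak was weaker within its list, with an enrichment of 4.98, and 40.6% of its 10% class by score had no partner. Its summit lay outside both islet peaks, which overlapped only part of it.

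A second Ptpn1 region had the reverse pattern in tags. From 167779167 to 167780902, islets had 45 tags in control and 74 in T2D (ratio 1.63, 1.11 to 2.41), and sperm had 92 tags in T2D and no control peak. Per kb the islet ratio was 1.06, since the T2D peak was 1533 bp wide and the control peak 958 bp. At the upstream edge of the window, from 167746845 to 167748173, control islets had 74 tags and control sperm 95, and neither T2D library had a peak. This region lies partly outside the window and about 9.5 kb from the gene-start edge.

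The other regions of Ptpn1 called in 1 condition of a tissue held between 22 and 149 tags. T2D sperm had 149 tags from 167790647 to 167792277 and 115 tags from 167800831 to 167802486, with enrichments of 3.75 and 5.05 and no peak in the other 3 libraries. T2D islets had 122 tags in the downstream flank just past the gene span, from 167805541 to 167807443. Control islets had 64 tags from 167789438 to 167790218, and each of these regions was called in 1 library only. The score percentiles of these 4 peaks were 22.6, 9.93, 50.8 and 5.41, so only the T2D islet peak exceeded the median of its list. Upstream of the gene T2D islets alone had 41 tags from 167751994 to 167753011, and control sperm alone 29 tags from 167753799 to 167754599. Inside the gene, from 167759359 to 167760179, T2D islets had 22 tags, control sperm 26 and T2D sperm 33, and control islets had no peak. From 167773328 to 167774529 control islets had 29 tags, control sperm 51 and T2D sperm 52, and T2D islets had no peak. The region called in all 4 libraries, from 167811822 to 167814490 in the downstream flank, held 100 and 98 tags in islets and 222 and 196 in sperm. Sperm alone had 74 and 81 tags from 167768198 to 167769309, and 49 and 45 tags from 167785858 to 167786692, in control and T2D.

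Tags were summed over the peaks with a partner, and the sums leave out the calls of 1 condition. In islets the scaled ratio of T2D to control was 0.973 (0.852 to 1.11) at Pik3r1, 0.996 (0.851 to 1.17) at Pik3ca and 1.01 (0.831 to 1.24) at Ptpn1. In sperm it was 1.12 (1.02 to 1.24), 1.04 (0.912 to 1.18) and 0.965 (0.840 to 1.11). The interval for Pik3r1 in sperm included 1 with a reciprocal overlap of 50% (1.11, 0.999 to 1.24), at a score of at least 100 (1.12, 0.980 to 1.28) and when scaled to unique tags (1.10, 0.991 to 1.21). It excluded 1 with partners within 1 kb (1.02 to 1.25), without flanks (1.02 to 1.26), with 50 kb flanks (1.04 to 1.25) and unscaled (1.02 to 1.24). Over all window peaks, matched or not and unscaled, tags in control and T2D islets summed to 555 and 750 at Pik3r1, 424 and 486 at Pik3ca and 366 and 389 at Ptpn1. In sperm these sums were 980 and 915, 472 and 673, and 641 and 763. The sums over all peaks also move with how much DNA was called, which is the coverage given above. The matched Pik3r1 peaks covered 12537 bp in control and 14145 bp in T2D sperm at 58.6 and 58.4 tags per kb, and the ratio per kb was 0.995. In islets the Pik3r1 peaks covered 6731 and 8777 bp at 68.3 and 51.5 tags per kb, and the ratio per kb was 0.778 (0.682 to 0.888). That interval takes the called peak widths as fixed and is no test of condition. The Pik3ca islet peaks had 69.1 and 70.9 tags per kb and the Ptpn1 islet peaks 53.7 and 48.5. Of the 13 islet regions called in both conditions, 3 were past 1.5-fold higher and 3 past 1.5-fold lower in T2D, against 9.63% and 9.16% of 112594 such regions in the genome. Per kb, 2 of the 13 remained past 1.5-fold in either direction, against 14.4% of such regions. These were the Pik3ca region from 32311472 (1.65) and the Ptpn1 region from 167762797 (0.530).

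**Figure D4:**
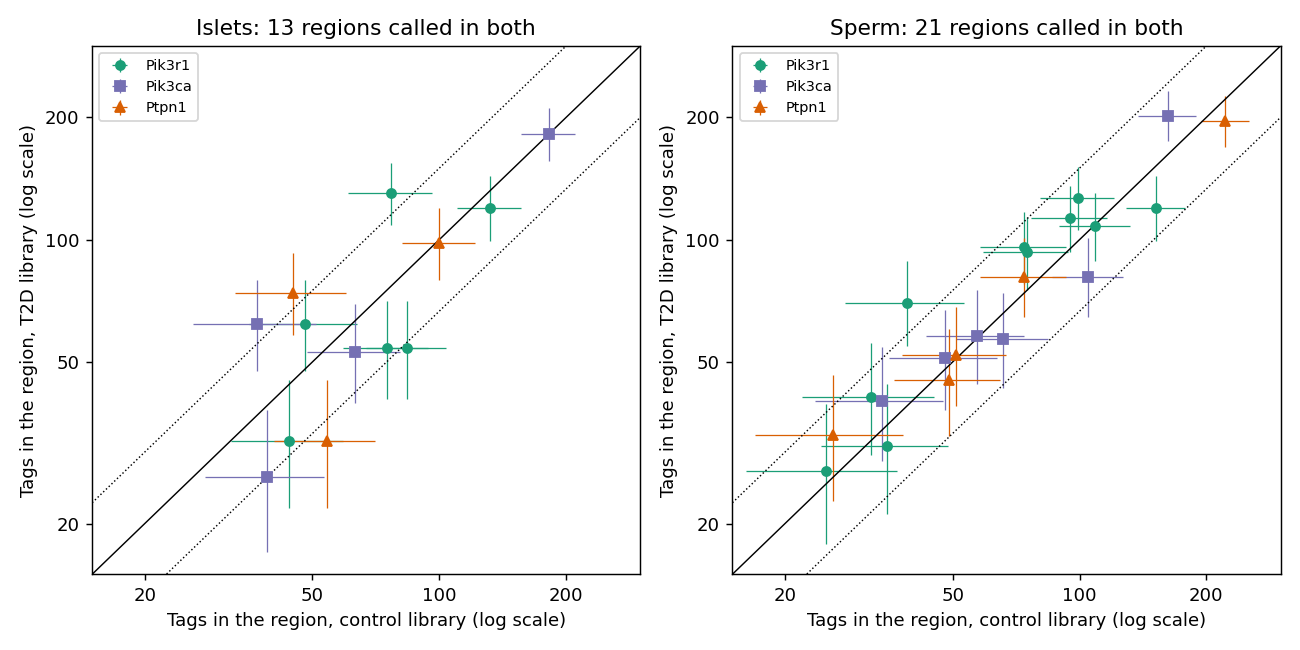
Tags in the T2D against the control library for regions called in both conditions, for islets (left, 13 regions) and sperm (right, 21 regions), on logarithmic axes and not scaled. Points are regions, error bars are exact 95% Poisson intervals, the solid line marks equal tags and dotted lines 1.5-fold. In islets 6 regions lie at or past a dotted line after scaling, and in sperm 1.

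The second question was whether father's sperm and offspring islets showed the same pattern. Of the 49 regions, 7 (14.3%) were called in all 4 libraries, against 21.5% of all regions, and 18 (36.7%) in 1 library, against 35.7%. Both islet libraries and neither sperm library shared 2 regions (4.08%, against 8.39%), and both sperm libraries and neither islet library 7 (14.3%, against 9.07%). Islet peaks at Pik3r1 overlapped a sperm peak in 7 of 9 cases in control and 5 of 11 in T2D, against 69.3% and 69.2% of their lists. At Pik3ca it was 6 of 8 and 6 of 7, and at Ptpn1 5 of 6 and 4 of 6. Sperm peaks overlapped an islet peak in 8 of 14 cases in control and 6 of 12 in T2D at Pik3r1, 5 of 6 and 8 of 11 at Pik3ca, and 5 of 8 and 4 of 8 at Ptpn1, against 68.2% and 66.6% of their lists.

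In 4 regions a call was made in only 1 condition in either tissue. The direction was the same in 2, against 50.2% of 27403 such regions in the genome. These were the T2D-only region of Pik3ca from 32355887 to 32356818 and the control-only region upstream of Ptpn1, both described above. It was opposite in the Pik3ca region next to the first, and at Pik3r1 from 102494191 to 102494897, where T2D islets had 29 and control sperm 37 tags. Neither of the same-direction regions had scores of at least 100.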

How the data were processed

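MeDIP-seq peak lists of 4 libraries (islets and sperm, control and T2D, 1 library each) were used. The submitters' processing notes name CASAVA 1.4 and build mm9. The authors called sperm peaks with MACS, using no input library and a p-value cutoff of 1.00e-05, per the file headers, with 49 bp tags and at most 2 tags per position. For the islet lists the caller is not stated. The deposited tags are whole-number counts per peak, not scaled to depth. The deposited score is 10 times the negative log10 of the p-value, and the deposited fold enrichment is over each library's own background; both are the authors' values and describe peaks within a list only. Unique tags, per the file headers, were 31053754 in control and 31833988 in T2D sperm, and islet depth is not stated. A total of 8223861 and 8204393 tags lay in control and T2D islet peaks.

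Peaks were matched with numpy 2.4.6, and count intervals came from scipy 1.17.1. Peaks of the 4 lists that overlapped or touched were merged into regions. Intervals cover counting error only, since each group had 1 library and the spread between libraries was not measured. They treat tags as independent, whereas PCR copies are not independent molecules, so intervals on tags may be too narrow even for that. No p-value is given, because each group had 1 library. All regions of the 3 windows were examined. Values are given for those of 1 condition in a tissue or past 1.5-fold in scaled tags, mostly with their position, and the others by counts or examples. The partner and ratio steps were tested on a simulated list, made from the control sperm list by dropping peaks and redrawing tags. Matched peaks there had identical positions, so partial overlaps were not tried, and the result of merging was not checked. The genes, windows and lists were chosen with earlier results of these data known. Alternatives were another overlap, a score minimum, other flanks, other scaling and tags per kb.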

Additional observations from a re-analysis of the deposited data

Results flagged for a closer look

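The values in this part were picked out because islets and sperm differed in direction between conditions; with 1 library per group none of these differences was tested. The scaled tag ratio of T2D to control over matched peaks was 0.973 in islets and 1.12 in sperm at Pik3r1, 0.996 and 1.04 at Pik3ca, and 1.01 and 0.965 at Ptpn1. All intervals except that of Pik3r1 in sperm (1.02 to 1.24) included 1. That one included 1 as well with a reciprocal overlap of 50%, at a score of at least 100, per kb and when scaled to unique tags. It stayed above 1 with partners within 1 kb, without flanks, with 50 kb flanks and unscaled. Other intervals excluded 1 in some settings. These were Pik3r1 in islets with a reciprocal overlap of 50% (0.720 to 0.974) and per kb (0.682 to 0.888). They were also Pik3ca in islets with partners within 1 kb (1.13 to 1.49) and in sperm at a score of at least 100 (1.02 to 1.55). These intervals cover counting error only, so whether they include 1 is no test of condition. T2D islets had 2 more peaks than control islets at Pik3r1 (11 against 9), and the number in sperm decreased by 2 from control to T2D (14 to 12). At Pik3ca the islet number decreased by 1 (8 to 7; a difference of -1) and T2D sperm had 5 more peaks than control (11 against 6).

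Among single regions, that of Pik3r1 from 102494191 to 102494897 had 29 tags in T2D islets and 37 in control sperm. The Pik3ca region from 32357012 to 32357615 had 23 tags in control islets and 37 in T2D sperm. The Pik3r1 region from 102515988 to 102517116 had 21 tags in control islets only, with a sperm ratio of 1.80. The Pik3ca region from 32338109 to 32339237 had 43 tags in T2D sperm only, with an islet ratio of 0.660.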

How the results depend on the processing

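Of 44 recomputed tag ratios of genes, 38 stayed within their interval, and of 32 recomputed counts 18 stayed within 1.5 times. Some of the ratios could hardly move. The scale left out in the unscaled setting was 1.01 in islets and 0.999 in sperm. Without flanks the Pik3r1 and Pik3ca islet ratios (0.973 and 0.996) rested on the same matched peaks as before. The number that stayed is therefore not a measure of stability. With a score of at least 100, peaks without a partner numbered 1 (T2D islets), 5 (control islets) and 5 (T2D sperm), regions of all 4 libraries 1, regions shared by the islet libraries alone 0, regions shared by the sperm libraries alone 4, and regions of 1 condition in the same direction in both tissues 0. Without flanks, 6 control islet peaks had no partner and 1 region had the same direction. With 50 kb flanks, peaks without a partner numbered 18 (control islets), 16 (T2D sperm) and 14 (control sperm), and 15 regions were in all 4 libraries and 7 in both islet libraries only. These windows are longer by construction. Totals and genome shares were not computed for these settings, except for unmatched peaks at a score of at least 100, given above. The other counts therefore cannot be set against the whole lists. The Pik3r1 islet ratio became 0.838 with a reciprocal overlap of 50%, 1.29 (0.871 to 1.92) at a score of at least 100 and 0.778 per kb. At that score the ratio rested on the region from 102509713 to 102511126 alone. The Pik3r1 sperm ratio, 1.12, turned to 0.995 per kb. The Pik3ca islet ratio became 1.30 with partners within 1 kb, and the Pik3ca sperm ratio 1.25 (1.02 to 1.55) at a score of at least 100. The latter rested on the region from 32361627 to 32364245 alone. In the 1 kb setting the 112-tag T2D islet peak was added, but its partner, a 182-tag control peak, was already matched and counted. T2D islet peaks of 33 and 18 tags and control islet peaks of 28 and 23 tags also gained partners. Of 15 recomputed ratios of single regions, added after seeing the data, 13 stayed within their interval. Leaving tags unscaled or scaling to unique tags could hardly move a ratio, since the scales were 1.01, 0.999 and 1.03. Only the ratios per kb could move, and both ratios that left their interval were per kb. The Pik3r1 region from 102525866 turned from 1.67 to 0.861 and the Ptpn1 region from 167779167 became 1.06. Partnered Pik3r1 peaks covered 6731 bp in control and 8777 bp in T2D islets, and 12537 and 14145 bp in sperm; the cause of the other changes was not tested. No paired analysis was possible because each group had 1 library. Islet depth is not given, and a missing call is no measure of absent methylation.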
